A study of Homo sapiens with 16 samples.

Results

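The genes described here are the E2F transcription factors and the RB-related pocket proteins that restrain them. They were chosen by symbol, without use of their values, as the rows of the count table named E2F1, E2F2, E2F3, E2F4, E2F5, E2F7, E2F8, RB1, RBL1 and RBL2, which makes 10 genes of the 25369 in the table. All 10 passed the filter on low values in both cell lines. The study compared TPC1 and K1, papillary thyroid carcinoma cell lines that carry wild type p53, after 24 h in 0.2% DMSO as vehicle, 10 µM nutlin, 25 µM GSK2830371, or nutlin and GSK2830371 combined at these doses. Nutlin releases p53 from its repressor MDM2, and GSK2830371 inhibits PPM1D, a phosphatase that also restrains p53, so that the groups address what each repressor contributes alone and with the other. Each group holds 2 libraries of stranded polyadenylated RNA, 8 per line and 16 in all, and each line stands for its own genetic background only, so a difference between TPC1 and K1 is one between these 2 lines.

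Most E2F factors bind DNA as dimers with a DP subunit and set the transcription of genes needed for S phase and mitosis. E2F1, E2F2 and E2F3 are known as activators, E2F4 and E2F5 act mainly as repressors together with pocket proteins, and E2F7 and E2F8 are atypical repressors that bind DNA without a DP partner. The pocket proteins RB1 (pRB), RBL1 (p107) and RBL2 (p130) bind E2Fs until cyclin-dependent kinases phosphorylate them, and p130 or p107 with E2F4, DP and the MuvB core forms the DREAM complex, through which p53 and its target CDKN1A (the kinase inhibitor p21) repress cell cycle genes.

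TPC1 libraries held 30789887 to 76648552 counts and K1 libraries 28888686 to 37161241. Levels are given in CPM, the counts scaled to library size with TMM factors, and are mean ± SD over the 2 libraries of a group where a spread is printed. CDKN1A and MDM2, both direct p53 targets, rose upon nutlin treatment by 5.61 and 4.96 on the log2 scale in TPC1 and by 3.16 and 3.05 in K1, which checks the nutlin label. Of 8 thyroid follicular markers, PAX8, FOXE1, HHEX and TG averaged 1 CPM or more over the libraries of each line, whereas TSHR was at 0 in every library and NKX2-1 at 0 in every TPC1 library. The epithelial keratins KRT8, KRT18 and KRT7 were expressed, while KRT19, EPCAM and CDH1 averaged under 1 CPM in each line. Summed fibroblast markers were at most 22.8 CPM and summed endothelial markers at most 0.79 CPM in any library. In TPC1 the summed fibroblast markers were 21.3 and 22.8 CPM with DMSO against 11.3 and 11.7 CPM with nutlin and 4.8 and 6.71 CPM with the combination, with DCN at 0 throughout. Summed epithelial markers of TPC1 were 776 and 930 CPM with DMSO, 608 and 666 with nutlin and 433 and 511 with the combination, and summed thyroid markers were 350 and 365 CPM with DMSO, 501 and 502 with nutlin and 330 and 372 with the combination. Of the leukocyte markers, CD68 was at 35.2 ± 2.65 CPM with DMSO and 71.9 ± 4.38 CPM with nutlin in TPC1, while PTPRC and CD3E were at 0 in every TPC1 library. The part of these markers in the results below was not tested. In bulk RNA, a lower share of cells in a cell cycle phase and less RNA per cell cannot be told apart.

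The sequences just upstream of 5 of these genes are shown because these members fell (E2F1, E2F2 and RBL1), were not called (E2F3) or rose in 1 line (E2F7) upon nutlin treatment. They run 5′ to 3′ from 100 bases before to 50 bases from the transcription start in the RefSeq promoter table (GRCh38.p14), and capitals mark the E2F sites found. E2F1 (chr20:33686336-33686485), E2F2 (chr1:23531184-23531333), RBL1 (chr20:37095948-37096097) and E2F7 (chr12:77065520-77065669) are on the minus strand, and E2F3 (chr6:20401779-20401928, the more distal of its start sites in the table) is on the plus strand.
E2F1: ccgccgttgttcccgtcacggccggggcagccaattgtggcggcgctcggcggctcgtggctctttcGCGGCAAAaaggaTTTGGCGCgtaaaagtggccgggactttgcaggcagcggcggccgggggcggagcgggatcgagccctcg
E2F2: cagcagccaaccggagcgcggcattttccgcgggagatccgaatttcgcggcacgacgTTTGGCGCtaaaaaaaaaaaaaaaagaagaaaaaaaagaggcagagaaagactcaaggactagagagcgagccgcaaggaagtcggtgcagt
E2F3: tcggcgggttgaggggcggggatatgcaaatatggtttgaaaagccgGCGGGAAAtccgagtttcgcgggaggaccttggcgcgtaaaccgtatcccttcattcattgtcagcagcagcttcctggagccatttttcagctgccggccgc
RBL1: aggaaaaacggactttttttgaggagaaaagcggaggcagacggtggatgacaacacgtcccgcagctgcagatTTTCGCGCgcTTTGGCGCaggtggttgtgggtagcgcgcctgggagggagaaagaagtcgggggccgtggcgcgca
E2F7: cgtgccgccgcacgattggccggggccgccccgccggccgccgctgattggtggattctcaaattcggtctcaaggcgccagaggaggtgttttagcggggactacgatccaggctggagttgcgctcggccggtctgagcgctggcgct

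The search used the letters TTTCCCGC, TTTCGCGC, TTTGGCGC and TTTGCCGC for the E2F site, TTTGAA and TTTAAA for the CHR element (the cell cycle homology region read by MuvB), and CCAAT for the CCAAT box, each on both strands, in windows of 300 bases. Such an E2F site lies in 3.31% of the 35116 windows of the table, a CHR element in 24.0% and a CCAAT box in 34.6%. For the members, windows on chromosome 8, which carries E2F5, were left out. The remaining windows include 10 for 8 of the 10 members, and none is for E2F8. The E2F1 window holds 2 E2F sites, at -33 to -26 (opposite strand) and -20 to -13 from the start, and 3 CCAAT boxes. The E2F2 window holds 1 site at -42 to -35, and the RBL1 window holds 2, at -26 to -19 and -16 to -9. The distal E2F3 window holds 1 site at -53 to -46 on the opposite strand, with 1 CHR element and 4 CCAAT boxes, and the other E2F3 window holds none of the motifs. No E2F site of these letters is in the windows of E2F4, E2F7 or RBL2. The E2F7 window holds 4 CCAAT boxes, and the 2 RBL2 windows hold 3 and 1 CHR elements. The RB1 window starts 172699 bases inside the gene's outer start and was not read. A match is a run of letters, and occupancy was not measured. In the GRCh37 build used for counting, the genes with the clearest changes lie at chr20:32263283-32274191 (E2F1), chr1:23832930-23857725 (E2F2), chr12:77415028-77459349 (E2F7), chr11:19245610-19263167 (E2F8) and chr20:35624752-35724400 (RBL1), each a protein coding gene on the minus strand.

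The first comparison asks what p53 activation by nutlin did to the family. E2F1, E2F2, E2F8 and RBL1 fell in both lines, E2F5 fell and E2F7 rose in TPC1, and the remaining members did not pass the test, which was edgeR's quasi-likelihood test with an adjusted p under 0.05 and a fold change over 1.5. In TPC1 that makes 5 of 10 members lower, where 18.0% of the 15273 genes tested were lower, and 1 of 10 higher, where 17.5% of genes were. In K1 it makes 4 of 10 members lower against 5.43% of the 15900 genes tested, and 0 higher against 3.84% of genes. In K1 the only member with a positive log2 fold change was E2F7, which had an unadjusted p under 0.05, and DESeq2 also called 0 members higher. The DMSO and nutlin libraries did not overlap for any of the 10 members in either line. Over all genes tested, 77.2% did not overlap in TPC1 and 63.9% in K1, so with 2 libraries a group this count says little about these members.

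**Figure D1:**
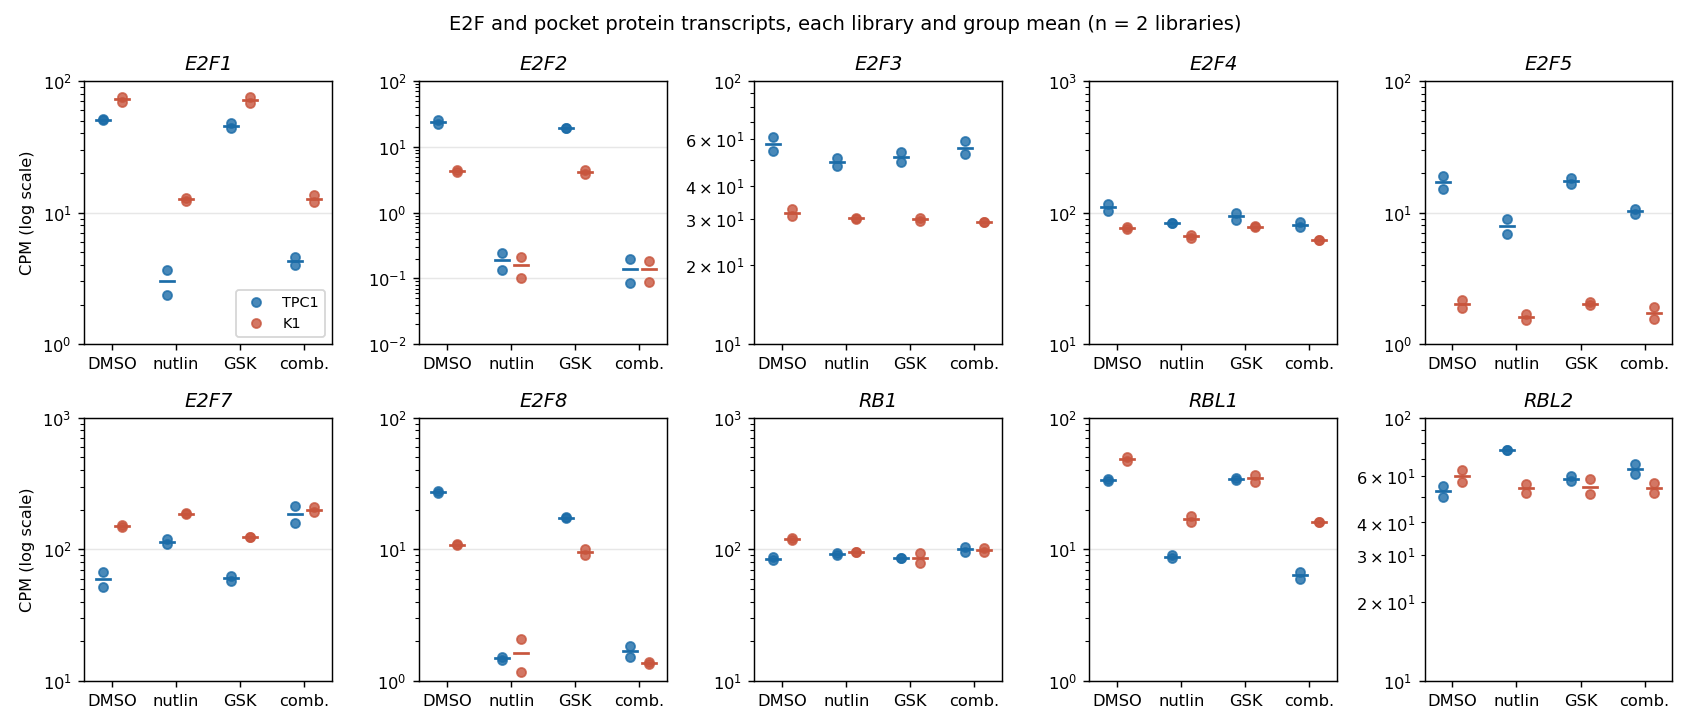
CPM (log axis) of each of the 10 members in every library, by treatment (GSK is GSK2830371, comb. is the combination), with TPC1 in blue and K1 in red; points are libraries and bars are means of 2. E2F1, E2F2, E2F8 and RBL1 are low with nutlin and with the combination in both lines, E2F7 is highest there, and E2F3, E2F4, RB1 and RBL2 stay within a narrow range.

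Among the activators, E2F2 changed most. E2F2 was at 25.8 and 22.2 CPM in the DMSO libraries of TPC1 and at 0.135 and 0.241 CPM with nutlin, which is 4 and 15 counts. Its log2 fold change was -6.89 ± 0.228 (SE, adjusted p = 2.5e-08). In K1 the level was 4.15 and 4.4 CPM with DMSO and 0.103 and 0.215 CPM with nutlin (3 and 7 counts), a log2 fold change of -4.69 ± 0.298 (adjusted p = 6.1e-08). E2F2 was therefore close to the limit of detection in both lines once nutlin was present, and its fold change there rests on few reads.

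E2F1 drives S phase entry and can also promote apoptosis. It stood at 50.7 and 51.1 CPM with DMSO in TPC1 and at 3.68 and 2.35 CPM with nutlin. The log2 fold change was -4.18 ± 0.172 (adjusted p = 9.4e-08), and nutlin left 5.92% of the DMSO level. K1 began higher, at 69.5 and 76.2 CPM, and retained 13 and 12.2 CPM with nutlin, which is 17.3% of the DMSO level (log2 fold change -2.53 ± 0.0845, adjusted p = 1.8e-10). In each line every nutlin library lay far below every DMSO library.

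E2F3 was the activator that was not called. Its counts sum the transcripts from both of its start sites, so an isoform cannot be followed. E2F3 was at 61.4 and 54.0 CPM with DMSO and 51.1 and 47.5 CPM with nutlin in TPC1, and at 30.7 and 32.6 against 30 and 30.2 CPM in K1. The log2 fold change was -0.26 (95% interval -0.51 to -0.02, adjusted p = 0.068) in TPC1 and -0.07 (-0.21 to 0.07, adjusted p = 0.46) in K1.

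Of the repressors that work with pocket proteins, E2F4 is the most abundant per length in these cells. E2F4 was at 103 and 117 CPM with DMSO and 83.5 and 83.9 CPM with nutlin in TPC1, a log2 fold change of -0.43 ± 0.0855 (adjusted p = 0.0023) that lies under the 1.5-fold threshold. In K1 it was -0.21 ± 0.0552 (adjusted p = 0.01), also under it. E2F5 fell in TPC1 from 15.2 and 19.0 CPM to 6.91 and 8.98 CPM (log2 fold change -1.12 ± 0.139, adjusted p = 1.2e-04). In K1 E2F5 was scarce from the start, at 2.17 and 1.87 CPM with DMSO and 1.54 and 1.69 CPM with nutlin, and the change was not significant (-0.32, 95% interval -0.74 to 0.11, adjusted p = 0.26).

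The atypical repressors moved in opposite directions in TPC1. E2F7, itself a known p53 target, rose from 66.9 and 51.8 CPM to 120 and 109 CPM (log2 fold change 0.91 ± 0.167, adjusted p = 0.0014). E2F8 fell from 27.9 and 26.7 CPM to 1.52 and 1.45 CPM (-4.25 ± 0.126, adjusted p = 1.4e-08). K1 expressed E2F7 at 149 and 153 CPM with DMSO and 184 and 188 CPM with nutlin, which is 1.23-fold higher (0.30 ± 0.0533, adjusted p = 7e-04) and under the threshold. In K1 E2F8 fell from 11 and 10.7 CPM to 1.16 and 2.09 CPM (-2.71 ± 0.177, adjusted p = 7.8e-08). The nutlin libraries of both lines thus spanned 1.16 to 2.09 CPM of E2F8, from DMSO levels that differed between the lines.

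RBL1 was the pocket protein gene that fell. The TPC1 libraries had 34.2 and 33.3 CPM with DMSO and 9.07 and 8.53 CPM with nutlin (log2 fold change -1.98 ± 0.0956, adjusted p = 2.8e-07). The K1 libraries had 46.9 and 50.5 CPM with DMSO and 17.8 and 16.2 CPM with nutlin (-1.52 ± 0.0826, adjusted p = 1.4e-08). RBL2, which encodes the pocket protein of quiescent cells, was at 55.1 and 50.2 CPM with DMSO and 75.1 and 75.3 CPM with nutlin in TPC1, 1.39-fold higher (0.48 ± 0.0899, adjusted p = 0.0016) and thus not called. In K1 RBL2 was at 63.3 and 56.8 against 51.9 and 55.9 CPM (-0.15, 95% interval -0.32 to 0.02, adjusted p = 0.17). RB1 was at 87.9 and 82.3 against 90.4 and 93.2 CPM in TPC1 (0.07, -0.11 to 0.26, adjusted p = 0.47) and at 122 and 117 against 95.2 and 95.5 CPM in K1 (-0.32 ± 0.0722, adjusted p = 0.0038, under 1.5-fold).

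**Figure D2:**
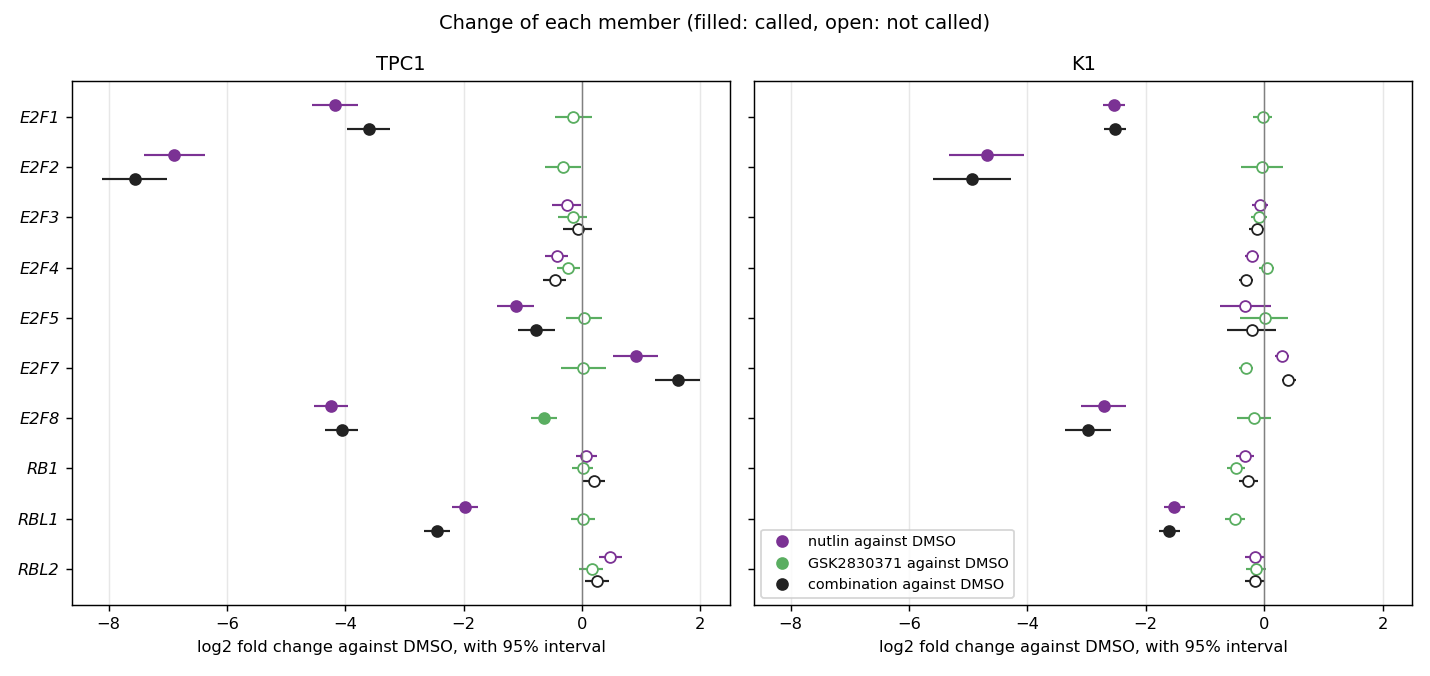
Log2 fold change of each member against DMSO with its 95% interval (x axis), for nutlin (purple), GSK2830371 (green) and the combination (black) in TPC1 (left) and K1 (right); filled points were called. The largest decreases are those of E2F2, from -4.69 in K1 with nutlin to -7.56 in TPC1 with the combination, and E2F7 in TPC1 is the only called increase.

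GSK2830371 alone lowered E2F8 in TPC1 and no other member passed the test. In TPC1 1 of 10 members was called, where 1.40% of genes were called in either direction, and in K1 0 of 10, where 2.23% of genes were. The member called in TPC1 was E2F8, at 27.9 and 26.7 CPM with DMSO and 17.7 and 17.2 CPM with GSK2830371 (log2 fold change -0.65 ± 0.0978, adjusted p = 0.017). This call was lost without TPC1 DMSO replicate 1 (-0.59, adjusted p = 0.056) and without either GSK2830371 library (adjusted p = 0.14 and 0.16). In K1, 3 members (E2F7, RB1 and RBL1) had an unadjusted and an adjusted p under 0.05 in edgeR at under 1.5-fold, and 0 were called with DESeq2. E2F7 was at 123 and 123 CPM with GSK2830371 against 149 and 153 CPM with DMSO (-0.30 ± 0.0538, adjusted p = 0.0022), and so on the other side of DMSO than with nutlin. RB1 was at 78.7 and 93.1 CPM with GSK2830371 against 122 and 117 CPM with DMSO (-0.48 ± 0.0725, adjusted p = 9e-04), and RBL1 at 32.3 and 36.8 against 46.9 and 50.5 CPM (-0.50 ± 0.0775, adjusted p = 0.001). RB1 and RBL1 passed the 1.5-fold threshold without K1 GSK2830371 replicate 2, at -0.60 each. For E2F1 the log2 fold change with GSK2830371 was -0.15 (95% interval -0.46 to 0.16) in TPC1 and -0.02 (-0.18 to 0.14) in K1.

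With the combination, E2F1, E2F2, E2F8 and RBL1 were lower in both lines, E2F5 was lower and E2F7 higher in TPC1. The comparison uses the same DMSO libraries as that of nutlin. In TPC1, 5 of 10 members were lower, against 21.7% of genes, and 1 was higher, against 22.5% of genes. In K1, 4 of 10 were lower, against 8.09% of genes, and 0 were higher, against 7.62% of genes and also with DESeq2. E2F1 was at 4.63 and 3.97 CPM in TPC1 (log2 fold change -3.60 ± 0.163) and at 13.5 and 12 CPM in K1 (-2.52 ± 0.0838). E2F2 was at 0.197 and 0.0848 CPM in TPC1 (-7.56 ± 0.243) and at 0.184 and 0.0897 CPM in K1 (-4.93 ± 0.302). E2F8 changed by -4.06 ± 0.123 in TPC1 and -2.97 ± 0.18 in K1, RBL1 by -2.45 ± 0.0981 and -1.60 ± 0.0825, and E2F5 in TPC1 by -0.77 ± 0.136, with adjusted p from 9.3e-11 to 8.8e-04 over these members. E2F7 reached 214 and 159 CPM in TPC1 (1.62 ± 0.169, adjusted p = 2.8e-05) and 193 and 208 CPM in K1, 1.33-fold higher (0.41 ± 0.0532, adjusted p = 2.9e-05).

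Whether adding GSK2830371 to nutlin moved the members further was asked by comparing the combination with nutlin. In TPC1 1 of 10 members was called, against 12.1% of genes, and in K1 0 of 10, against 2.68% of genes. For K1, 0 members had an unadjusted p under 0.05 in edgeR and 0 were called with DESeq2. The member called in TPC1 was E2F7, 1.64-fold higher with the combination (log2 fold change 0.71 ± 0.165, adjusted p = 0.013). The call was lost without TPC1 nutlin replicate 1 (adjusted p = 0.051), nutlin replicate 3 (0.098) or combination replicate 1 (log2 fold change 0.48, adjusted p = 0.073), which is the library with the highest E2F7 level. RBL1 was lower with the combination in TPC1 (6.74 and 5.92 against 9.07 and 8.53 CPM, -0.47 ± 0.102, adjusted p = 0.0095) by less than 1.5-fold. E2F1 in TPC1 was 0.57 ± 0.187 above nutlin (adjusted p = 0.051). It passed the test at 0.59 (adjusted p = 0.0073) with the replicate number as a block, and at 0.88 without nutlin replicate 1. In K1 the difference for E2F1 was 0.01 (95% interval -0.19 to 0.22) and for E2F7 0.11 (0 to 0.22).

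Against GSK2830371 alone, the combination changed 6 of 10 members in TPC1, where 38.5% of genes were called, and 5 of 10 in K1, where 13.1% were. E2F1, E2F2, E2F8 and RBL1 were lower in both lines (from -1.11 for RBL1 in K1 to -7.24 for E2F2 in TPC1), E2F5 was lower in TPC1 (-0.80), and E2F7 was higher in TPC1 (1.6 ± 0.169) and in K1 (0.71 ± 0.0538, adjusted p = 2.6e-07). The interaction, which asks whether the effect of both drugs differs from the sum of their single effects on the log2 scale, was called for 1 of 10 members in TPC1 against 6.32% of genes. This was E2F8 (0.83 ± 0.182, adjusted p = 0.027), the member that GSK2830371 alone had lowered, and the call was lost without either nutlin library, either GSK2830371 library or combination replicate 1 (adjusted p from 0.055 to 0.14). With the replicate number as a block, E2F8 (0.82, adjusted p = 0.0034), E2F1 (0.74, adjusted p = 0.0076) and E2F7 (0.66, adjusted p = 0.00035) were called, and DESeq2 called the same 3 genes. In K1 the interaction was called for 0 members, against 2.44% of genes, and DESeq2 also called 0. In edgeR, 3 members (E2F7, RB1 and RBL1) had an unadjusted and an adjusted p under 0.05 at under 1.5-fold. Without K1 GSK2830371 replicate 2 it was called for RB1 (0.66), as it was without combination replicate 1 (0.59).

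Activators were then set against repressors within each library, as the mean log2(CPM + 0.5) of E2F1, E2F2 and E2F3 minus that of E2F4 and E2F5. CPM were not divided by transcript length here, so the sign of a balance does not say which side was more abundant. Only changes between treatments within a line are read, here and for the balances below. With DMSO the balance against E2F4 and E2F5 was -0.07 ± 0.265 in TPC1 and 0.69 ± 0.114 in K1. Nutlin moved it by -2.37 in TPC1 and -1.57 in K1, the combination by -2.34 and -1.60, and GSK2830371 by -0.11 and -0.07. Every nutlin and combination library lay below every DMSO and GSK2830371 library of its line. With E2F3 left out the shift was larger, at -3.80 in TPC1 and -2.44 in K1 with nutlin.

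Against the mean of the atypical repressors E2F7 and E2F8, of which E2F8 fell in both lines, the activators moved by -1.66 in TPC1 and -0.73 in K1 with nutlin. With the combination the differences were -1.89 and -0.74, and with GSK2830371 0.09 and 0.18. Within the pocket proteins, RBL2 minus RBL1 was 0.63 ± 0.0658 with DMSO and 3.03 ± 0.0615 with nutlin in TPC1. The K1 values were 0.30 ± 0.184 and 1.64 ± 0.171.

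**Figure D3:**
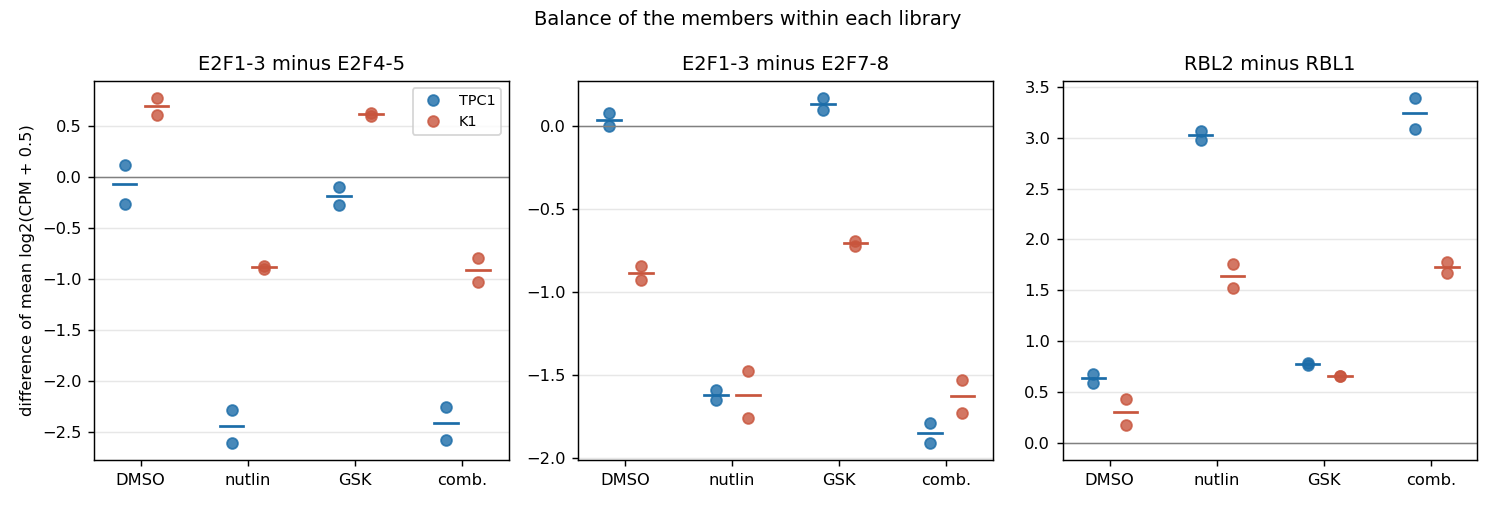
Balance within each library (y axis, difference of mean log2(CPM + 0.5)) by treatment, for activators against E2F4 and E2F5 (left), activators against E2F7 and E2F8 (middle) and RBL2 against RBL1 (right), with TPC1 in blue and K1 in red; points are libraries and bars are means of 2. The nutlin and combination libraries are below the DMSO libraries in the left and middle panels and above them in the right panel, in both lines.

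On a per length basis the make-up of the family changed with nutlin. CPM were divided by the length of each gene's MANE Select transcript, and each member's share of the summed E2F level was taken. The shares of a library have a fixed total, so a share can grow because other members fall. E2F1 made up 16.7% ± 0.272 of the E2F transcripts of TPC1 with DMSO and 1.49% ± 0.441 with nutlin, and 26.9% ± 0.863 and 6.19% ± 0.408 in K1. E2F4 held the largest share with DMSO, at 45.8% ± 3.06 in TPC1 and 35.9% ± 0.334 in K1. E2F7 went from 9.16% ± 1.84 to 26.6% ± 1.27 in TPC1 with nutlin and to 36.3% ± 5.5 with the combination, and in K1 from 26.2% ± 0.298 to 42.9% ± 0.401 and 46.0% ± 1.57. In K1 E2F4 and E2F7 with nutlin held 41.3% ± 0.66 and 42.9% ± 0.401, whereas in TPC1 E2F4 remained above E2F7 with nutlin, at 52.9% ± 1.07. The level of E2F4 in TPC1 was at 76.2% of DMSO with nutlin. That of E2F7 in K1 rose 1.23-fold and was not called.

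The order of the levels per kb with DMSO in TPC1 was E2F4 (52 CPM per kb), E2F1 (18.9), RB1 (17.8), E2F3, RBL2 (10.9), E2F7 (10.4), E2F5 (8.69), E2F8 (7.37), RBL1 (5.93) and E2F2 (4.62). The neighbours E2F3, RBL2 and E2F7 differed by less than the larger SD of each pair (SDs 1.04, 0.71 and 1.86), as did E2F5 and E2F8 (SDs 1.38 and 0.236). In K1 it was E2F4 (36.2), E2F1 (27.1), E2F7 (26.4), RB1 (25.1), RBL2 (12.4), RBL1 (8.56), E2F3 (6.29), E2F8 (2.92), E2F5 (1.03) and E2F2 (0.822), where E2F1 and E2F7 (SDs 1.76 and 0.571) differed by less than the larger of their SDs. Of the pocket protein transcripts, RB1 made up 51.5% in TPC1 and 54.5% in K1 with DMSO, and RBL1 made up 17.1% ± 0.481 with DMSO and 4.27% ± 0.228 with nutlin in TPC1, against 18.6% ± 1.46 and 8.76% ± 0.7 in K1.

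**Figure D4:**
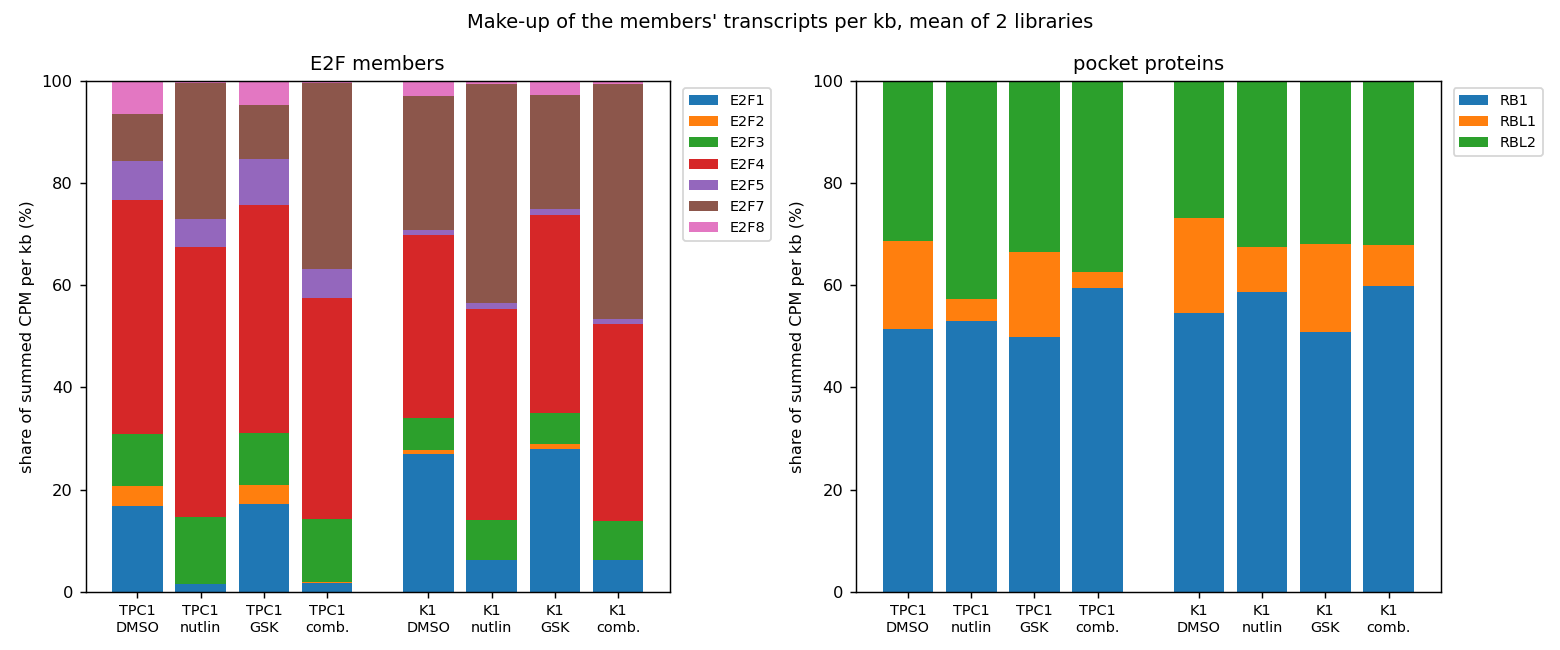
Share of each member in the summed CPM per kb (y axis, %, stacked bars, mean of 2 libraries) of the E2F genes (left) and the pocket protein genes (right) for each line and treatment. The E2F1 share shrinks with nutlin and the combination, from 16.7% to 1.49% in TPC1 with nutlin, and the E2F7 share grows, to 36.3% in TPC1 and 46.0% in K1 with the combination.

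The lines differed before treatment. With DMSO, 5 of 10 members were called between K1 and TPC1, where 46.2% of the 16738 genes tested in the joint fit were called. E2F5 was lower in K1 by 8.50-fold (log2 difference -3.09 ± 0.161, adjusted p = 4.1e-11), E2F2 by 5.59-fold (-2.48 ± 0.142), E2F8 by 2.52-fold (-1.33 ± 0.123) and E2F3 by 1.82-fold (-0.86 ± 0.0848), while E2F7 was 2.55-fold higher in K1 (1.35 ± 0.124), with adjusted p from 1.2e-10 to 1.3e-07 for these 4. E2F1, E2F4, RB1 and RBL1 differed by under 1.5-fold, with E2F4 at -0.61 and called without TPC1 DMSO replicate 1, and RBL2 was at 0.19 (adjusted p = 0.064).

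The nutlin effect itself differed between the lines for 6 of 10 members, where 19.2% of genes were called, tested as the K1 effect minus the TPC1 effect in that fit. The decrease was smaller in K1 for E2F1, E2F2, E2F5 and E2F8, and the log2 fold changes of E2F7 and RBL2 were lower in K1 than in TPC1. For E2F2, nutlin left 0.188 CPM in TPC1 and 0.159 CPM in K1, close to the limit of detection. Its DMSO means were 24 and 4.27 CPM. E2F8 averaged 1.48 CPM in TPC1 and 1.63 CPM in K1 with nutlin, from DMSO means of 27.3 and 10.8 CPM. Whether the starting levels account for the difference in effect of E2F2 or E2F8 was not tested. E2F2 was not called without K1 nutlin replicate 2, E2F7 without TPC1 DMSO replicate 3 or nutlin replicate 1, and E2F5 without TPC1 DMSO replicate 3, TPC1 nutlin replicate 1, K1 DMSO replicate 2 or either K1 nutlin library. The combination effect differed for 5 of 10 members, where 25.7% of genes were called, namely E2F1, E2F2 (not without K1 combination replicate 1), E2F7, E2F8 and RBL1. What the combination added to nutlin differed for 1 of 10, E2F7, where 5.11% of genes were called, and this call was lost without either TPC1 nutlin library, TPC1 combination replicate 1 or any 1 of the K1 libraries. E2F1 averaged 12.6 CPM in K1 and 3.01 CPM in TPC1 with nutlin.

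The partners of these proteins were followed in a list of 13 genes, of which TFDP3 did not pass the filter. With nutlin 9 of 12 fell and 1 rose in TPC1 (median log2 fold change -0.72), where 18.0% of genes were lower and 17.5% higher. In K1 7 of 12 fell and 0 rose (-0.69), where 5.43% of genes were lower and 3.84% higher. The median of all genes was 0 in both lines. MYBL2, the B-MYB subunit that joins MuvB once DREAM dissolves, fell from 277 to 10.3 CPM in TPC1 (-4.79 ± 0.113). In K1 the MYBL2 means were 164 and 58.1 CPM (-1.49 ± 0.0886). FOXM1, the mitotic activator that MuvB recruits next, fell by 3.18 and 0.75 on the log2 scale, and TFDP1, the main DP subunit, by 1.49 and 0.77. Among MuvB subunits, LIN9 fell by 2.06 in TPC1 and 1.35 in K1, LIN52 by 0.72 and 0.71 and LIN54 by 0.72 and 0.67, while RBBP4, a histone chaperone, fell by 0.70 in TPC1 and was at -0.45 in K1, under the threshold. LIN37, a MuvB subunit needed for repression, rose by 0.61 in TPC1 (7.91 to 12.4 CPM) and was at 0.03 in K1. MYBL1, which encodes the related factor A-MYB, fell by 0.98 and 1.06, and E2F6, a repressor without pocket protein binding, fell by 0.60 in TPC1 and was at -0.29 in K1. TFDP2, a second DP subunit, and DYRK1A, the kinase that assembles DREAM, were at 0.02 and -0.08 in TPC1 and -0.23 and -0.06 in K1, and did not pass the test. With the combination 5 of 12 partners were lower in TPC1, where 21.7% of genes were lower, and 7 of 12 in K1, where 8.09% were. FOXM1 was then at -4.34 in TPC1 and -1.26 in K1, and MYBL2 at -5.18 and -1.95. GSK2830371 alone changed 0 of 12 in TPC1, with 4 at an unadjusted p under 0.05, where 1.40% of genes were called in either direction. In K1 it lowered 1 of 12 (LIN9), where 2.23% of genes were called in either direction.

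Upstream of the pocket proteins, a list of 15 cyclins, kinases and inhibitors had 4 members higher and 5 lower with nutlin in TPC1, where 17.5% of genes were higher and 18.0% lower. Of the 12 tested in K1, 1 was higher and 4 lower, where 3.84% of genes were higher and 5.43% lower. CDKN1A rose in both lines, as given above, from 138 to 6910 CPM in TPC1. CCNE2, a cyclin E that activates CDK2 and also one of the G1/S genes below, fell from 45.5 to 0.428 CPM in TPC1 (-6.77 ± 0.258). The CCNE2 means of K1 were 21.7 and 1.19 CPM (-4.19 ± 0.151).

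The genes that E2F and DREAM are known to control fell broadly. Over all genes tested, 18.0% were lower with nutlin in TPC1 and 5.43% in K1. Of 38 G1/S genes, 37 fell and 0 rose with nutlin in TPC1 (median -2.74), the exception being PCNA at 0.56. In K1 36 fell (-1.80), with PCNA at -0.12 and TYMS at -0.52. CCNA2, the cyclin of S phase, fell by 5.38 in TPC1, and ORC1, a subunit of the origin recognition complex, by 2.51 in K1. Of 28 G2/M genes, 28 fell in each line, with medians of -3.96 in TPC1 and -1.08 in K1. CENPA, the centromeric histone, and NEK2, a centrosome kinase, each fell by 5.67 in TPC1, and CDK1 and PLK4, a mitotic kinase and a centriole kinase, by 1.41 and 1.37 in K1.

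With the combination, 37 of 38 G1/S genes were lower in each line (medians -2.93 in TPC1 and -1.95 in K1), and 28 of 28 G2/M genes (-4.75 and -2.15). Over all genes tested, 21.7% were lower with the combination in TPC1 and 8.09% in K1. PCNA, a p53 target as well as an E2F target, was higher in TPC1 (0.92) and not called in K1 (0.29). Between the combination and nutlin, 6 of 38 G1/S genes and 18 of 28 G2/M genes were lower in TPC1, where 5.66% of genes were lower, and 1 G2/M gene was higher (KIF20A, a mitotic kinesin, 0.89). In K1, 4 of 38 and 25 of 28 were lower, where 1.52% of genes were lower and 0 members of the E2F and pocket protein set were called. GSK2830371 alone changed 0 of 38 G1/S and 0 of 28 G2/M genes in TPC1, where 1.40% of genes were called in either direction. Of these, 30 and 19 had an unadjusted p under 0.05. In K1, GSK2830371 alone changed 3 of 38 and 11 of 28, all lower, where 2.23% of genes were called in either direction.

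**Figure D5:**
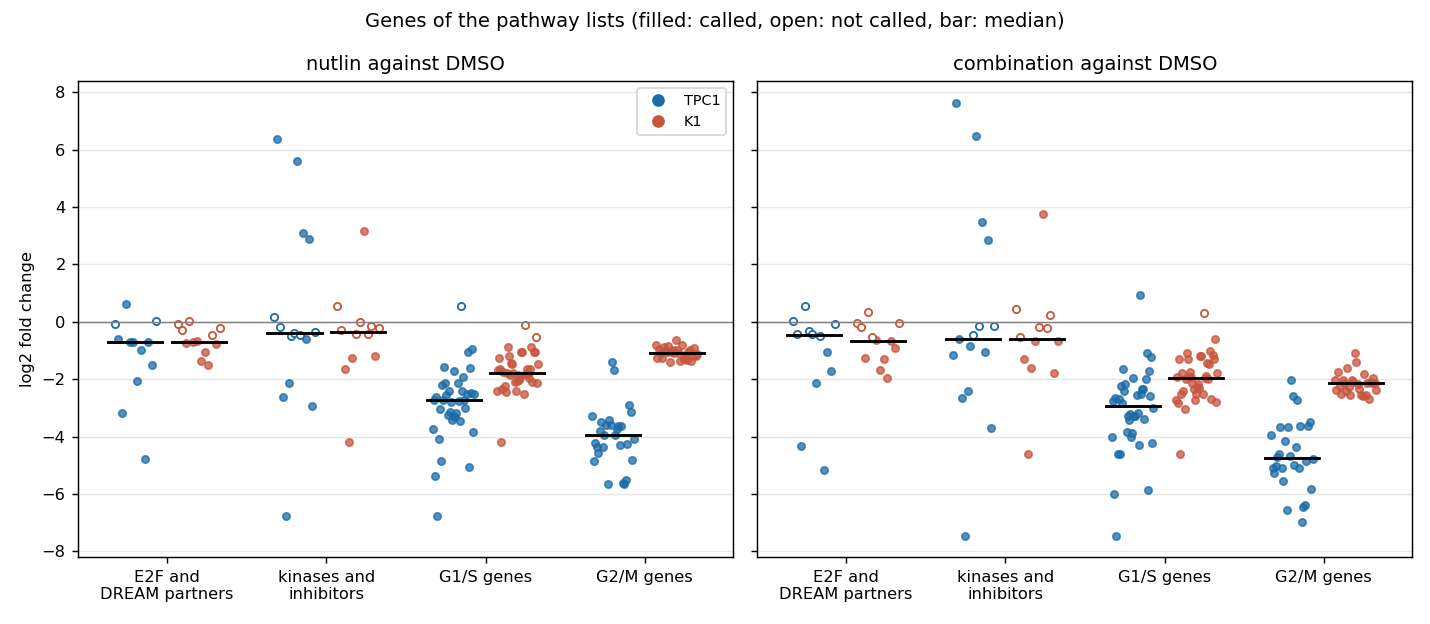
Log2 fold change of each gene of the 4 pathway lists (y axis), for nutlin (left) and the combination (right) against DMSO, with TPC1 in blue and K1 in red; filled points were called and bars are medians. The G1/S and G2/M genes lie below 0, with PCNA as the exception, and the G2/M median of K1 goes from -1.08 with nutlin to -2.15 with the combination.

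The genes whose pattern lay nearest to a member were found by the root mean square difference over the 6 log2 fold changes against DMSO, among 12438 genes. The nearest to E2F1 was PAQR4 (0.24) and then RAD54L (0.29), to E2F2 CCNE2 (0.44) and FAM111B (0.45), and to E2F8 UHRF1 (0.31) and DTL (0.34). RBL1 lay nearest to SPIN4 (0.15) and KNTC1 (0.16), E2F7 to WWP1 (0.11) and ZNF564 (0.14), and E2F5 to PKP4 (0.07) and NCKIPSD (0.09). Nearest to the other members were C2orf47 and RPL7L1 (0.05 each) for E2F3, MAML1 (0.03) and PAF1 (0.04) for E2F4, MSH3 (0.08) and MICU2 (0.09) for RB1, and PHF20 and HKDC1 (0.04 each) for RBL2. The difference is not scaled to the size of the changes. Small values for members that changed little therefore cannot be ranked against those of E2F1, E2F2 or E2F8. No member was among the nearest genes of another member.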

How the data were processed

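RNA-seq libraries of TPC1 and K1 were grouped by line and treatment from the sample labels. Per the labels and the study's methods, the authors trimmed single-end reads of 150 nt, dropped reads under 30 nt, aligned them to GRCh37 (hg19) with TopHat2 2.0.13, removed mapping quality under 10 with SAMtools (its version differs between the labels and the methods), marked duplicates with Picard 1.129 and counted reads per gene by strand with HTSeq 0.6.1. The deposited values are raw counts. TPC1 columns are numbered 1 and 3 whereas the labels number replicates 1 and 2, so columns numbered 3 were assigned to a treatment only. The study describes the replicates as prepared independently.

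Counts were fitted with edgeR 4.0.16 (TMM scaling, quasi-likelihood, R 4.3.3, limma 3.58.1), over the 8 libraries of a line or all 16 between lines, for genes above 0.1 CPM in at least 2 libraries. P-values were adjusted by Benjamini-Hochberg over all genes tested, and a gene was called if it changed over 1.5-fold with an adjusted p under 0.05. Common dispersions were 0.00828 (TPC1) and 0.00273 (K1). Replicates varied by 11.6 to 48.3 times the counting variance in TPC1 and 4.96 to 8.16 times in K1. In TPC1, same-numbered libraries deviated together in all 6 pairs of treatments (correlations of 0.494 to 0.698 across genes). This pairing comes from the data and not the labels. Values with the replicate number as a block are therefore given beside TPC1 results whose call they change. TPC1 libraries numbered 3 held 62853375 to 76648552 counts and those numbered 1 held 30789887 to 36896529. Whether depth accounts for the shared deviation was not tested. Fits were tested on simulated counts drawn independently for each library, so the shared deviation in TPC1 was not covered. Alternatives were DESeq2 1.42.0 (size factors or Wald test), library size only, filterByExpr or no filter, fits of the compared groups, a replicate block, other pseudocounts and each library left out. Corrections for GC content and length, crossed DMSO numbers in K1 and the block for the gene lists of TPC1 were added after seeing the data. All 10 members, all partner genes, CDKN1A and MDM2 are named, and of the other lists the 2 largest nutlin changes per line among called genes at 5 CPM or more in the higher group. Nearest patterns were sought among genes at a mean of 1 CPM or more. PCNA, TYMS and KIF20A are outside this rule and are named after their values were seen. The members and lists were chosen with earlier results of these data known. One marker gene is not reported here.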

Additional observations from a re-analysis of the deposited data

Results flagged for a closer look

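Effects that differed between the lines by a test of the difference were looked at again, as the K1 effect minus the TPC1 effect on the log2 scale (edgeR, all 16 libraries). For the nutlin effect, these were E2F1 (1.62 ± 0.191, adjusted p = 8.4e-06), E2F8 (1.49 ± 0.246, adjusted p = 2.1e-04), RBL2 (-0.67 ± 0.123, adjusted p = 5.6e-04) and E2F7 (-0.65 ± 0.172, adjusted p = 0.0088). The E2F7 difference was no longer called without TPC1 DMSO replicate 3 (-0.47) or nutlin replicate 1 (-0.58). E2F2 differed by 2.14 ± 0.616 (adjusted p = 0.014), and without K1 nutlin replicate 2 by 1.5 (adjusted p = 0.32), leaving a lone K1 nutlin library with 3 counts. E2F5 differed by 0.77 ± 0.257 (adjusted p = 0.031), a call lost without TPC1 DMSO replicate 3, TPC1 nutlin replicate 1, K1 DMSO replicate 2 or either K1 nutlin library (0.59 to 0.84, adjusted p from 0.061 to 0.13).

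For the combination effect, the differences were 1.06 ± 0.182 for E2F1 (adjusted p = 2.2e-04), 1.06 ± 0.247 for E2F8 (adjusted p = 0.0026), 0.82 ± 0.129 for RBL1 (adjusted p = 9.3e-05) and -1.24 ± 0.172 for E2F7 (adjusted p = 2.8e-05). E2F2 differed by 2.58 ± 0.68 (adjusted p = 0.0063), and by 1.96 (adjusted p = 0.16) without K1 combination replicate 1. In what the combination added to nutlin, E2F7 differed by -0.59 ± 0.171 (adjusted p = 0.041). That call was lost with DESeq2 size factors, library size only or the replicate block, and without either TPC1 nutlin library, TPC1 combination replicate 1 or any 1 of the K1 libraries (-0.36 to -0.66). The comparisons share their DMSO or nutlin libraries. With 2 libraries a group, no library could be tested as standing apart.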

How the results depend on the processing

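The counts of members called with nutlin or the combination against DMSO and with the combination against GSK2830371 were unchanged when any library was left out, 6 each in TPC1 and 4, 4 and 5 in K1. Other counts ranged, with 1 library left out, from 0 to 1 for GSK2830371 against DMSO, the combination against nutlin and the interaction in TPC1, from 0 to 2 for GSK2830371 against DMSO and 0 to 1 for the interaction in K1, from 5 to 6 between lines with DMSO, from 4 to 6 for the nutlin and the combination effect between lines, and from 0 to 1 for what the combination added. These fits assume that a lone library varies as the remaining groups do. The replicate block gave 2 members instead of 1 for the combination against nutlin in TPC1 (E2F1 added, 0.59), 3 instead of 1 for the interaction in TPC1 (E2F1 and E2F7 added) and 0 instead of 1 between lines for what the combination added (E2F7 at -0.58, under 1.5-fold), and changed no other count. For the gene lists of TPC1 named above, the block moved the 18 G2/M genes lower with the combination than with nutlin to 20 and no other count given. In K1, replicate deviations correlated across genes by -0.359 to -0.289 between DMSO and each drug treatment, and by 0.146 to 0.379 among the drug treatments. The sign thus differed by whether DMSO was in the pair, and the numbers were not taken to pair libraries there. With the DMSO numbers of K1 crossed, the block gave the same counts in K1. The interaction in TPC1 also gave 3 members without a filter, with DESeq2's Wald test and with the GC and length correction (E2F1 and E2F7 added). That correction gave 2 for the combination against nutlin in TPC1 and 2 between lines for what the combination added, where DESeq2 size factors and library size gave 0. For the combination effect between lines it gave 7 instead of 5 (RB1 and RBL2 added), and library size only gave 6 (E2F5 added). Between lines with DMSO it gave 6 instead of 5 (E2F1 added). Per member, of the settings tried where it was called at least once, 1123 left it on the same side of the thresholds, 34 lost the call, 24 gained it and 0 reversed the direction. The causes were not tested.

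For the balance, a pseudocount of 0.1 gave activators minus E2F4 and E2F5 of -2.82 and -2.84 in TPC1 (nutlin, combination) and -1.98 and -2.03 in K1, and activators minus E2F7 and E2F8 of -1.99, -2.27, -1.03 and -1.05. A pseudocount of 1 gave -2.07, -2.04, -1.36 and -1.37, and in TPC1 -1.49 and -1.71. Without E2F3 the values were -3.80, -3.77, -2.44 and -2.45, and -3.10, -3.32, -1.60 and -1.60. The low counts of E2F2 limit its fold changes.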
